A study of Homo sapiens with 28 samples.

Results

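MYC and the inhibitors of DNA binding ID1, ID2 and ID3 are 4 of the 24678 genes that had an exonic read in the deposited count table. They were found by their gene identifiers: ENSG00000136997 (MYC, on chromosome 8), ENSG00000125968 (ID1), ENSG00000115738 (ID2) and ENSG00000117318 (ID3). The RNA came from HEK293T, an established human embryonic kidney line of wild-type genotype. Cells received 100 µM 4-thiouridine (s4U), a uridine analogue built into RNA as it is made, for 2 h, or no s4U. A conversion chemistry then makes s4U read as C, so that a read with a T-to-C mismatch (a converted read) marks RNA made during labelling.

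The 18 libraries formed 12 groups. RNA was converted with NaIO4 and TFEA (periodate oxidation with trifluoroethylamine, pH 5.2), with iodoacetamide, or with OsO4 and NH3 (osmium tetroxide in ammonia). Every conversion was done after drop-out handling, the common protocol under which labelled material can be lost, or after improved handling, which was meant to keep it. There were 2 libraries with s4U and 1 without for each chemistry and handling. The labelled libraries held 2129372 to 5813077 aligned reads and the unlabelled ones 1935777 to 9962345. The 4 genes had few of them: a labelled library held 144 to 385 exonic reads of MYC, 27 to 118 of ID3, 10 to 181 of ID2 and 6 to 40 of ID1. Values of ID1 are therefore the least precise. Nothing says whether same-numbered libraries came from separate cultures, so p-values measure the spread between these libraries, which may be technical. In the edgeR fits of read levels that spread came from the labelled libraries, because each unlabelled group held 1 library.

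MYC is a basic helix-loop-helix leucine zipper transcription factor that binds DNA as a dimer with MAX and drives genes of growth and ribosome production. Its mRNA is a classic example of a short-lived transcript. ID proteins also carry a helix-loop-helix but lack the basic region that contacts DNA, so they hold E proteins such as TCF3 in dimers that do not bind DNA. ID genes are well-known early targets of BMP and SMAD signalling, and their mRNAs too turn over quickly. Transcripts that turn over quickly are largely replaced during a labelling pulse.

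The 250 bases upstream of the RefSeq start are shown for the ID genes (GRCh38.p14, the release of the deposited table's build). They were picked because the 3 genes parted in the read levels below although they form 1 family. Those levels parted between handlings, and a link to these sequences was not tested. ID1 lies at chr20:31605289-31606510, ID2 at chr2:8682056-8684461 and ID3 at chr1:23557926-23559501. The upstream windows are chr20:31605039-31605288 (plus strand), chr2:8681806-8682055 (plus strand) and chr1:23559502-23559751 (minus strand). They are written 5′ to 3′ in the direction of transcription, and capitals mark the matches to TATAAA and CCAAT on either strand.
ID1: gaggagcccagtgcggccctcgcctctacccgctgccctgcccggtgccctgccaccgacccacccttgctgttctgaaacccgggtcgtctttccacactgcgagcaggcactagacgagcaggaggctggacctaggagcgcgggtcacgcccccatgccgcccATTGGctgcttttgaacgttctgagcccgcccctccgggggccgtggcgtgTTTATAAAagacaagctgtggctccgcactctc
ID2: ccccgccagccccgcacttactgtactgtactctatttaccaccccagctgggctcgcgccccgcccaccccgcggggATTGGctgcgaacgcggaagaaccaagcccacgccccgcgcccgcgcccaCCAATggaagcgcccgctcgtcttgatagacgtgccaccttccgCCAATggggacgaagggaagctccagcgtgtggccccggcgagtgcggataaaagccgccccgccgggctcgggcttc
ID3: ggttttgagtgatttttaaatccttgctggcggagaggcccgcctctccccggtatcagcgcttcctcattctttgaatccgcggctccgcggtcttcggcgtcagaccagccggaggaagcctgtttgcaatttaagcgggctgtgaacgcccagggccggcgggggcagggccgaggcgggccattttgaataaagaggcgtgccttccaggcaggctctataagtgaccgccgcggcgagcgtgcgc
The ID1 window alone held TATAAA, the core of a TATA box, in 2 overlapping matches on opposite strands that begin 33 and 31 bases before the start. TATAAA occurred in 10.7% of 35116 RefSeq promoter windows of this length. Only this exact string was counted, so near matches such as tctataag in the ID3 window and ggataaaa in the ID2 window were left out. CCAAT, searched for after the sequences had been seen, occurred once in ID1, 3 times in ID2 and 0 times in ID3, and in 32.0% of all windows. The E-box CACGTG and the SMAD motifs GGCGCC and GTCTAGAC were in none of the 3 windows and in 6.34%, 16.4% and 0.182% of all. The looser E-box CANNTG had 1 match, in ID2 at 205 bases before the start, against 61.8% of all windows with a match. The GC content was 66% for ID1, 69.2% for ID2 and 62% for ID3, with a median of 58% over all windows. These matches are descriptions of the letters and not evidence of a bound site.

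Handling moved the exonic read level of the 4 genes in different directions in labelled cells. ID2 rose under improved handling, ID3 and MYC fell, and ID1 did not pass the test. The background has to be read first: of 12449 genes tested, edgeR called 80.6% different between handlings, 46.7% higher and 33.9% lower. The median gene was 0.44 higher on the log2 scale, so being called does not set these genes apart. Levels are exonic CPM, read counts scaled to a common library size with TMM factors, and are compared within a gene only. A level in these bulk libraries cannot tell fewer expressing cells from less RNA per cell. Handling is part of the protocol, so its changes are not read as changes in the cells. The cause of these changes was not tested.

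MYC had its lowest labelled drop-out library at 166, its median at 182 and its highest at 208 exonic CPM, and its improved libraries lay at 118, 136 and 150. All 6 improved libraries lay below all 6 drop-out libraries. The log2 change was -0.43 (SE 0.13), with an adjusted p of 0.00322 by edgeR, and -0.88 relative to the median gene. With intronic reads counted these were -1.12 and -1.71. The 2 handlings did not overlap in 60% of the genes tested, in 34.7% with the improved handling higher and in 25.3% with it lower.

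ID2, which restrains E proteins in progenitor and immune cells, had drop-out levels of 10.7 at the lowest, 25.1 at the median and 35.3 at the highest. Its improved libraries lay at 45.8, 53.6 and 79.3, all above every drop-out library. The log2 change was 1.27 (SE 0.19), with an adjusted p of 3.25e-06 by edgeR. That was 0.83 above the median gene when exonic reads were counted, and -0.02 relative to it when intronic reads were counted too, where ID2 changed by 0.57.

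ID3, known for its part in lymphocyte differentiation, went the other way: its drop-out libraries lay at 36.3, 55.7 and 79.6 (lowest, median and highest) and its improved libraries at 18.7, 26.1 and 35.1. Again the handlings did not overlap, here with the improved handling lower. The log2 change was -1.08 (SE 0.18), with an adjusted p of 8.58e-06 by edgeR, and -1.52 relative to the median gene. With intronic reads counted these were -1.75 and -2.33.

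ID1, the family member best known as a BMP target, had drop-out libraries at 10.1, 16.0 and 20.2 and improved libraries at 3.77, 9.74 and 17.5. Its handlings overlapped. The log2 change was -0.72 (SE 0.34) and missed the threshold, with an adjusted p of 0.0519 by edgeR. It passed without a filter on low counts (-0.84, adjusted p = 0.0170) and with the replicate number as a block (-0.94, adjusted p = 0.0185 by edgeR). With intronic reads counted the change was -1.40 (adjusted p = 0.000937 by edgeR). ID1 had 0 intronic reads after drop-out and 1 after improved handling in labelled libraries, so that setting hardly altered its own counts. Counting intronic reads lowered the changes of all 4 genes by similar amounts. They went from -0.43 to -1.12 for MYC, from 1.27 to 0.57 for ID2 and from -1.08 to -1.75 for ID3. The TMM factors were computed anew in that setting, so the size of each level change holds for its own scaling. The part of the scaling in these shifts was not tested. Leaving out single labelled libraries moved the exonic change of ID1 between -1.02 and -0.50. It passed without the first NaIO4 and TFEA library or the first iodoacetamide library of either handling, without either OsO4 and NH3 drop-out library, and without the second OsO4 and NH3 improved library.

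**Figure D1:**
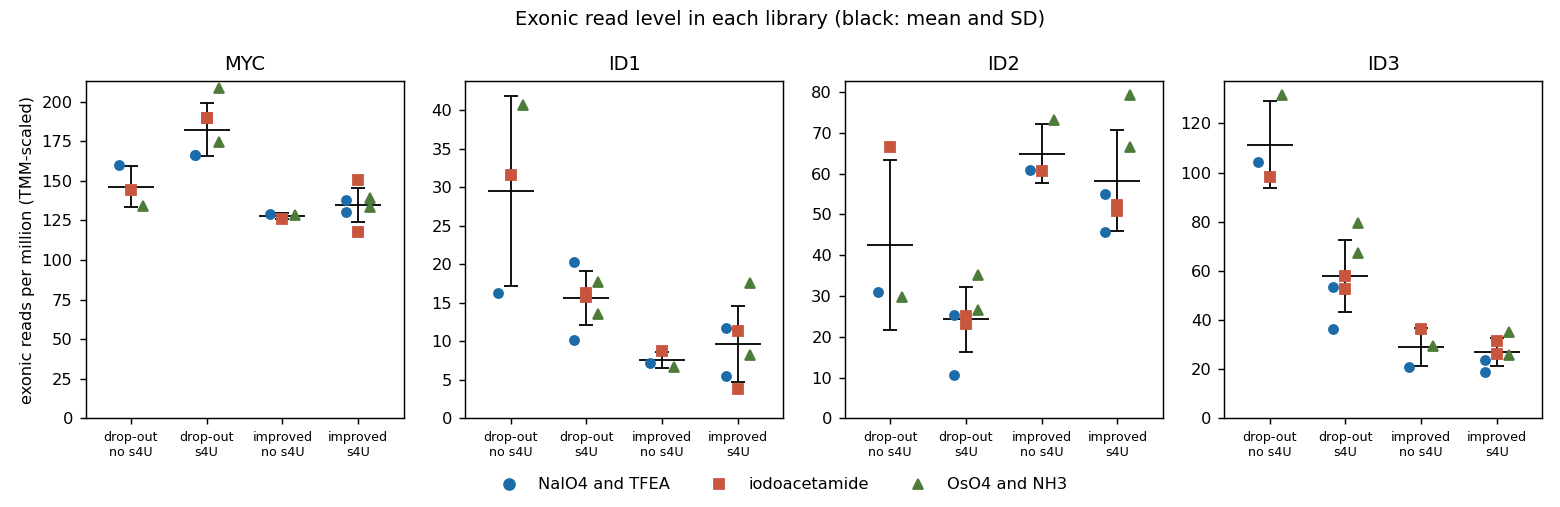
Exonic CPM (TMM-scaled, vertical axis) of MYC, ID1, ID2 and ID3 in each of the 18 libraries, by handling and label, with the mean and SD in black. The labelled improved libraries of ID2 all lie above its labelled drop-out libraries, and those of MYC and ID3 all lie below.

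The libraries without s4U gave the same question without any labelled RNA, with edgeR calling 72.1% of genes between handlings, 41.4% higher and 30.7% lower. ID3 had 98.1, 104 and 132 exonic CPM in the 3 drop-out libraries and 20.9, 29.5 and 36.3 in the 3 improved ones, without overlap. The log2 change was -1.97 (SE 0.23), with an adjusted p of 1.79e-07 by edgeR. ID1 had 16.2, 31.6 and 40.7 against 6.69, 7.22 and 8.75, also without overlap, and fell by 1.86 on the log2 scale (SE 0.44, adjusted p = 0.000661 by edgeR).

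ID2 in these unlabelled libraries had 29.8, 30.9 and 66.5 after drop-out handling and 60.7, 60.9 and 73.2 after improved handling. The handlings overlapped through the iodoacetamide drop-out library at 66.5. The log2 change of 0.71 (SE 0.25, adjusted p = 0.0161 by edgeR) passed the test with exonic reads, but not without a filter on low counts (0.65, adjusted p = 0.0586) or with intronic reads counted (0.07, adjusted p = 0.820). MYC had 134, 144 and 160 against 126, 129 and 129, which did not overlap. The same held for 76.6% of genes, 43.4% higher and 33.2% lower. Its log2 change of -0.19 (SE 0.18) did not pass (adjusted p = 0.340 by edgeR), while it passed with intronic reads counted (-0.85, adjusted p = 0.000520) and with STAR (-0.39, adjusted p = 0.0346).

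Whether handling acted differently with and without s4U was tested directly as an interaction. No gene of 12449 was called (0%) by edgeR, with 914 at an unadjusted p under 0.05, and DESeq2 called 3. Without a filter on low counts edgeR called 10. The interaction was 0.89 on the log2 scale (SE 0.29) for ID3, with an unadjusted p of 0.00567 and an adjusted p of 0.526 by edgeR. It was 1.14 (SE 0.55) for ID1, 0.56 (SE 0.32) for ID2 and -0.24 (SE 0.22) for MYC, with adjusted p-values of 0.677, 0.738 and 0.848. A handling change that differs with the label was thus not shown for any of the 4 genes.

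The opposite movement of ID2 and ID3, a pair of the same family, was summarised after their values were seen as the ratio of their exonic reads in a library. That ratio is not corrected for gene length, so only its difference between handlings is read. The 6 labelled drop-out libraries had ratios from 0.2 to 0.694 and the 6 labelled improved libraries from 1.66 to 3.07. The 3 unlabelled drop-out libraries had 0.227, 0.296 and 0.678, and the 3 unlabelled improved ones 1.67, 2.48 and 2.92. The log2 ratio differed by 2.41 in labelled cells and by 2.50 over all 18 libraries, and by 2.11 to 2.71 with single labelled libraries left out. The pair was chosen for its opposite movement, so these values are a description with no test.

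The 3 chemistries gave the handling change separately, with edgeR calling 63.1% of genes for NaIO4 and TFEA, 63.5% for iodoacetamide and 62.8% for OsO4 and NH3. In that order 36.1%, 36.5% and 35.8% were higher and 27%, 27% and 27.1% lower. ID2 was 1.48 (SE 0.35), 1.11 (SE 0.33) and 1.23 (SE 0.32) higher on the log2 scale, past the threshold in each. ID3 changed by -1.05 (SE 0.32), -0.94 (SE 0.31) and -1.27 (SE 0.29), also past the threshold in each. MYC changed by -0.31 (SE 0.22), -0.51 (SE 0.22) and -0.49 (SE 0.22), and passed for iodoacetamide, with an adjusted p of 0.0480 by edgeR, and in neither other chemistry (0.217 and 0.0531). ID1 passed in none. The test that the handling change differs between chemistries called no gene of 12449 (0%) by edgeR, with 389 at an unadjusted p under 0.05, and the unadjusted p of the 4 genes lay between 0.540 and 0.780.

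Labelling itself was compared with no label within each handling. After drop-out handling edgeR called 27 genes (0.217%), 12 of them lower with s4U (0.0964%), and ID3 was 1 of the 12. The split into higher and lower calls, 15 and 12 here, depended on the setting. It was 21 and 69 with HISAT2, 7 and 17 with STAR, and 43 and 10 with DESeq2. With no filter it was 71 and 26, and with intronic reads 14 and 4. The labelled drop-out libraries of ID3 averaged 57.9 ± 14.7 (SD, n = 6) exonic CPM and the unlabelled ones 111 ± 17.8 (SD, n = 3), without overlap. Labelled and unlabelled drop-out libraries did not overlap in 4.85% of the 12449 genes, in 2.51% with the labelled ones lower. The log2 change was -0.96 (SE 0.20, adjusted p = 0.0383 by edgeR). That call was lost with DESeq2 (-0.89, adjusted p = 0.0763), with STAR alignments (-0.87, adjusted p = 0.0502), with intronic reads counted (-0.99, adjusted p = 0.0517) and without any 1 of 9 of the 12 labelled libraries (-0.96 to -0.79, adjusted p up to 0.113).

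The other members were not called after drop-out handling. ID2 changed by -0.73 (SE 0.26) and ID1 by -0.82 (SE 0.38) with s4U, with adjusted p-values of 0.296 and 0.436 by edgeR. MYC changed by 0.32 (SE 0.16, adjusted p = 0.473), and the sign turned with STAR (-0.01) and HISAT2 (-0.14). After improved handling 28 genes were called (0.225%) and none of the 4 was among them. The s4U changes there were 0.08 (SE 0.15) for MYC, 0.32 (SE 0.40) for ID1, -0.17 (SE 0.20) for ID2 and -0.07 (SE 0.21) for ID3, with adjusted p-values of 0.914 or more, and that of MYC turned with STAR (-0.13) and HISAT2 (-0.23).

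Ordered by mean level, the 4 conditions ranked the genes differently. ID3 ran from unlabelled drop-out (111) through labelled drop-out (57.9) to unlabelled (28.9) and labelled improved handling (26.9), and the last pair did not differ beyond its spread. ID1 ran from unlabelled (29.5) and labelled drop-out (15.6) to labelled (9.68) and unlabelled improved handling (7.55), with no tested neighbours called different. ID2 had the improved handling on top, unlabelled (64.9) and then labelled (58.3), followed by unlabelled (42.4) and labelled drop-out libraries (24.3), and neither pair was called different. MYC was highest in labelled drop-out libraries (182), followed by unlabelled drop-out (146), labelled improved (135) and unlabelled improved libraries (128), again with no tested neighbours called different. Neighbours that differ in both handling and label were not tested against each other.

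The exonic reads were next split into converted reads and reads with no T-to-C mismatch, both scaled by the same library size. A read of new RNA can hold no mismatch, so unconverted reads are not all old RNA. In converted reads edgeR called 73% of 8455 genes (58% higher, 15% lower), with the median gene 1.22 higher on the log2 scale under improved handling. In unconverted reads it called 82.9% of 10218 genes (40.2% higher, 42.7% lower), with a median of -0.08.

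MYC had converted levels of 99.1 at the lowest, 133 at the median and 149 at the highest labelled drop-out library, and 93.1, 105 and 113 after improved handling. The handlings overlapped, and the log2 change of -0.32 (SE 0.18) did not pass (adjusted p = 0.110 by edgeR). Its unconverted reads averaged 51.6 ± 14.5 (SD, n = 6) after drop-out and 30.5 ± 6.43 (SD, n = 6) after improved handling. They fell by 0.76 on the log2 scale (SE 0.21, adjusted p = 0.00186 by edgeR). This fall is not a measure of old MYC RNA. A mixture of binomials, which allows for new reads without a mismatch, gave the new share of MYC reads in each library. It ran from 73.4% to 99.3% after drop-out and from 84.9% to 98.2% after improved handling.

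ID2 converted reads rose from 18.6 to 48.6 CPM on average, by 1.39 on the log2 scale (SE 0.27, adjusted p = 5.88e-05 by edgeR). That was close to the shift of the median gene, 0.18 above it. Its unconverted reads averaged 5.74 and 9.65, a log2 change of 0.83 (SE 0.41) that did not pass (adjusted p = 0.0658 by edgeR). It passed with STAR (1.17, adjusted p = 0.00390) and with converted reads defined by 2 or more mismatches (0.74, adjusted p = 0.0146). It also passed without the second NaIO4 and TFEA drop-out library (1.34), the first OsO4 and NH3 drop-out library (1.25) or the first OsO4 and NH3 improved library (0.96), and ran from 0.57 to 1.34 over single libraries left out. ID3 fell in both classes: converted reads went from 38.3 to 19.1 CPM, a log2 change of -0.95 (SE 0.24, adjusted p = 0.000995 by edgeR), and unconverted reads from 19.6 to 7.78, a log2 change of -1.31 (SE 0.29, adjusted p = 0.000275). With a read counted as converted only at 2 or more mismatches, the call of ID3 converted reads was lost (-0.66, adjusted p = 0.115 by edgeR). ID1 averaged 12.5 and 8.11 converted CPM, a log2 change of -0.74 (SE 0.41, adjusted p = 0.112 by edgeR), and its unconverted reads were too few to pass the filter. Without single libraries the converted change of ID1 ran from -1.57 to -0.38, and it passed without the first iodoacetamide improved library (-1.57, adjusted p = 0.0106 by edgeR) and the first NaIO4 and TFEA drop-out library (-0.92, adjusted p = 0.0378). Relative to the median gene, the converted changes were -1.54 for MYC, -1.95 for ID1 and -2.16 for ID3. The unconverted changes were -0.68 for MYC, 0.91 for ID2 and -1.22 for ID3 relative to their own median gene.

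**Figure D2:**
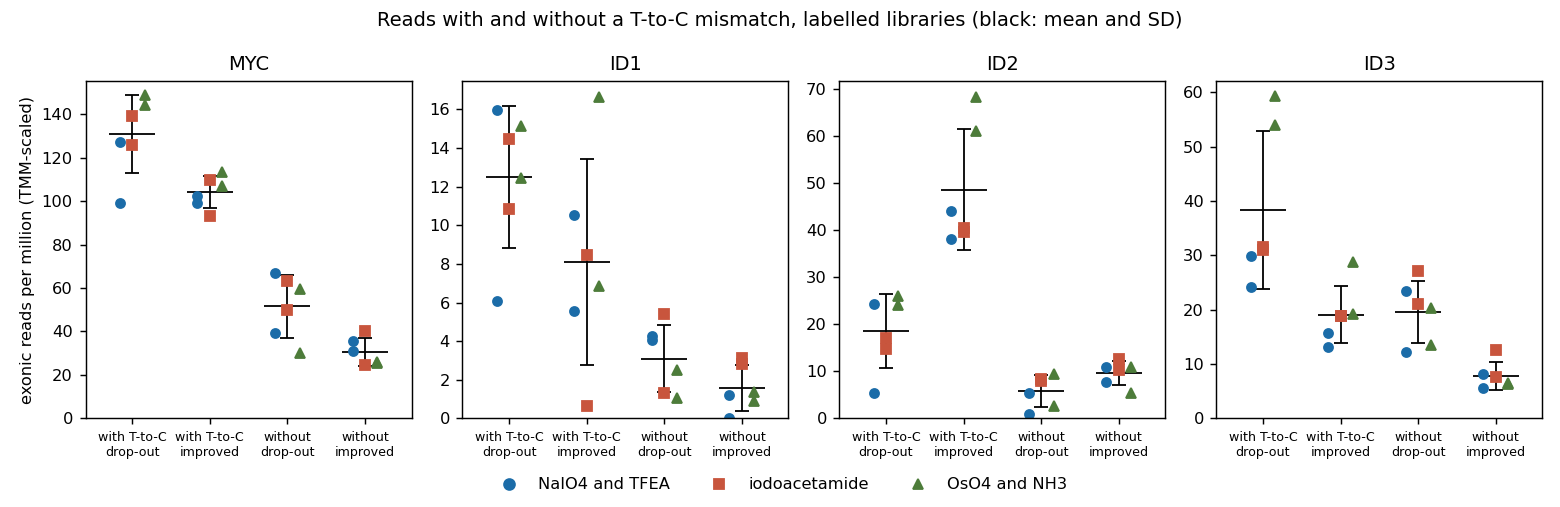
CPM of exonic reads with and without a T-to-C mismatch in the 12 labelled libraries, for each gene and handling, with the mean and SD in black. Reads of ID2 with a mismatch rise from 18.6 to 48.6 on average under improved handling, while those of ID3 fall from 38.3 to 19.1.

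The converted share, the percent of a gene's exonic reads that were converted, was high for all 4 genes in labelled cells. It is not the share of new RNA, because a read of new RNA can hold no mismatch. Without s4U the summed share was 3.46% for MYC after drop-out and 4.28% after improved handling, 2.48% and 4.81% for ID2, and 1.57% and 2.99% for ID3. ID1 had 5.97% after improved handling and 0 of 79 reads after drop-out handling, which allows a share of up to 3.80% (3 counts of the total, with a 95% Wilson limit of 4.64%).

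MYC shares in labelled libraries ran from 59.6% over a median of 72.6% to 82.7% after drop-out handling, and from 73.1% over 77.6% to 81.7% after improved handling. All improved values lay inside the drop-out range. That range held a split between replicates: the first and second drop-out libraries had 76.4% and 59.6% for NaIO4 and TFEA. They had 73.6% and 66.5% for iodoacetamide, and 82.7% and 71.5% for OsO4 and NH3. Every second drop-out library of MYC lay below every improved one. After drop-out handling ID3 had the same replicate order in each chemistry, and ID1 and ID2 did not. ID3 ran from 53.4% over 63.3% to 80% and from 60% over 70.9% to 81.8%, with most of both ranges shared. ID2 ran from 50% over 71.0% to 96% and from 75.9% over 81.7% to 91.8%, the improved range lying within the drop-out one. ID1 ran from 60% over 82.3% to 92.3% and from 16.7% over 86.5% to 100%, and its lowest improved library rested on 6 reads.

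None of the 4 handling differences in this share passed the two-sided exact permutation test, whose smallest possible p is 0.00926. They were 5.73 percentage points for MYC (p = 0.167), 5.61 for ID3 (p = 0.130), 9.12 for ID2 (p = 0.287) and -2.61 for ID1 (p = 0.898, exact permutation). Over single libraries left out, the difference ran from 2.94 to 8.52 points for MYC and from 3.70 to 7.51 for ID3, and none passed. The ID2 difference was 16.8 without the first NaIO4 and TFEA drop-out library (exact permutation p = 0.0185). The ID1 value was 7.11 without the second iodoacetamide improved library, and its sign also turned without the second NaIO4 and TFEA drop-out library (0.55) and the first iodoacetamide drop-out library (1.56). With a read counted as converted only at 2 or more mismatches, ID2 averaged 43.7% after drop-out and 62.7% after improved handling, a difference of 19.1 points (exact permutation p = 0.00926). A rise was common at that limit. Of 1992 genes with at least 50 exonic reads in every labelled library, which leave out ID2, edgeR called 1601, all higher. Their median log2 odds ratio was 1.63. At 1 or more mismatches, the handlings did not overlap in 43.5% of these 1992 genes, nor in 20.4% of the 7472 genes with at least 5 reads (0.0268% with the improved handling lower). They overlapped in all 4 members.

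**Figure D3:**
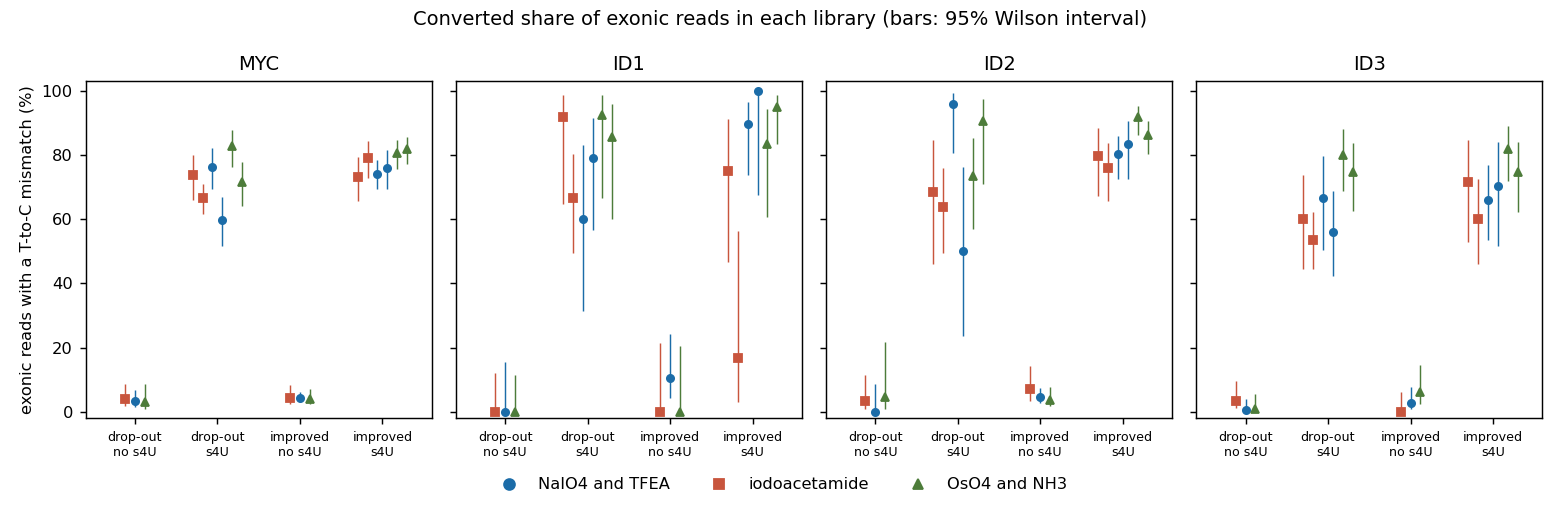
Percent of exonic reads with a T-to-C mismatch in each of the 18 libraries, with 95% Wilson intervals, by handling and label. Labelled libraries of MYC lie between 59.6% and 82.7% after drop-out and between 73.1% and 81.7% after improved handling, and unlabelled ones between 3.03% and 4.48%.

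The members ranked near the top of all genes by this share. Among the 7472 genes MYC was at rank 74 after drop-out and 65 after improved handling, ID1 at 20 and 73, ID2 at 61 and 25, and ID3 at 150 and 151. The median gene had 15.5% and 28.3%. Among the 1992 deeper genes MYC was at rank 7 and 6, where the median gene had 10.6% and 21.5%. Reads are not independent molecules, so the intervals of these shares cover counting error only.

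The edgeR test of converted against unconverted reads, with a term for each library, called 82% of the 1992 genes, all with a higher share under improved handling and a median log2 odds ratio of 1.09. MYC, the only member deep enough for it, had a log2 odds ratio of 0.43 (SE 0.27, adjusted p = 0.131 by edgeR), with an approximate 95% interval of -0.10 to 0.96. The 48 genes with a drop-out share of at least 50%, MYC among them, had a median log2 odds ratio of 0.24, and 10 were called. They were selected after the values were seen, on a share that enters the odds ratio, and serve as a description. MYC passed the threshold without the first NaIO4 and TFEA drop-out library (0.61, adjusted p = 0.0361) and without the first OsO4 and NH3 drop-out library (0.58, adjusted p = 0.0451).

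At a minimum lowered to 5 reads, a setting chosen after the data were seen, the log2 odds ratio was 0.62 (SE 0.51) for ID2, 0.35 (SE 0.42) for ID3 and 0.33 (SE 0.78) for ID1. None passed (adjusted p-values of 0.296, 0.482 and 0.729 by edgeR), and the median of the 7472 genes was 1.01. Each of these estimates lies below that median, and each approximate 95% interval includes both 0 and the median.

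The number of mismatches per read varied. In MYC, 28.3% of reads had 0 mismatches after drop-out handling and 22.5% after improved handling (means of 6 libraries). In the same order 27.5% and 30.0% had 1, and 4.31% and 7.02% had 5 or more. In ID2, 26.3% and 17.2% had 0, 30.0% and 20.1% had 1, and 11.4% and 16.3% had 5 or more. The share of T positions read as C within converted reads was 7.77% and 8.26% for MYC, 8.04% and 8.44% for ID1, 6.63% and 7.60% for ID2, and 7.24% and 8.74% for ID3. None of these 4 handling differences passed (exact permutation p of 0.204 or more).

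**Figure D4:**
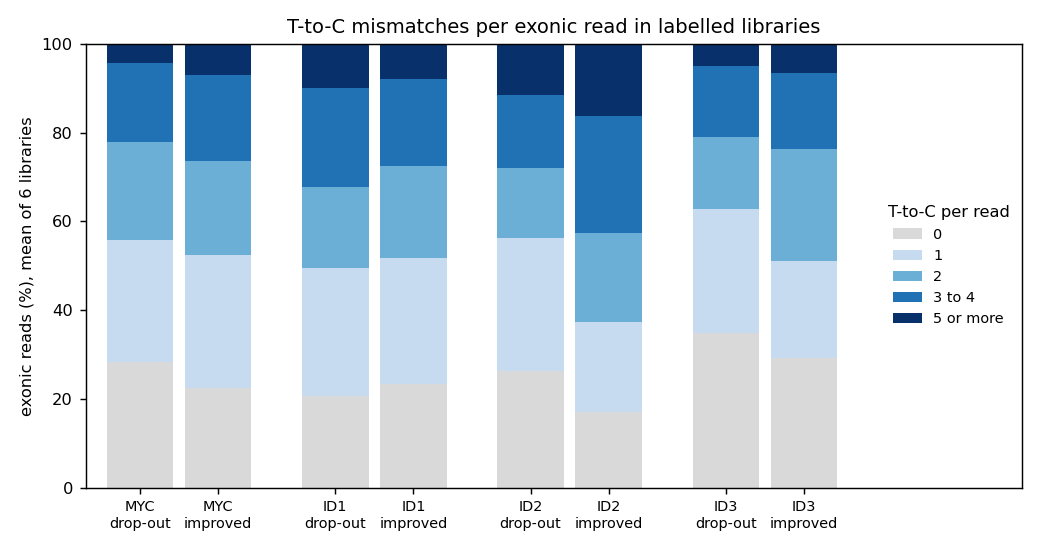
Mean percent of exonic reads with 0, 1, 2, 3 to 4, and 5 or more T-to-C mismatches in the 6 labelled libraries of each handling, for each gene. The grey part with 0 mismatches is 26.3% for ID2 after drop-out and 17.2% after improved handling.

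ID2 reads also held more T positions, the places where a conversion can be seen. They averaged 35.3 ± 3.64 (SD, n = 6) after drop-out and 38.7 ± 4.26 (SD, n = 6) after improved handling in labelled cells, a difference of 3.41 within chemistries (exact permutation p = 0.00926, the smallest possible). Over all 18 libraries the difference was 4.41 (exact permutation p = 0.00275). All reads not counted as intronic gained 6.27 T positions in labelled libraries. That set was not limited to reads that name a single gene, so it is not a like background for the exonic reads of a gene. MYC gained 0.16, ID3 changed by -1.29 and ID1 by -2.09, with exact permutation p-values of 0.667, 0.352 and 0.176. The part of read composition in the ID2 values was not tested.

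Intronic reads, which mark precursor RNA, were few. Summed over the 6 labelled libraries of a handling, MYC had 56 after drop-out and 75 after improved handling, ID2 had 18 and 65, ID3 had 24 and 21, and ID1 had 0 and 1. The intronic share of MYC reads averaged 4.77% ± 2.55 (SD, n = 6) and 5.14% ± 2.59 (SD, n = 6), that of ID2 11.0% and 8.98%, and that of ID3 5.33% and 7.69%. No member's share differed beyond its spread (exact permutation p of 0.389 or more in labelled cells). Over 2636 genes with at least 50 reads in every labelled library, the median share was 9.73% and 24.9%, and the handlings did not overlap in 62.8%. They overlapped in MYC, the one member at that depth.

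Intronic reads of MYC were converted in 66.1% of cases after drop-out handling (95% Wilson interval 53.0% to 77.1%) and in 90.7% after improved handling (82.0% to 95.4%). By library the shares ran from 35.7% to 100% and from 81.8% to 100%, on 3 to 20 reads each, and their difference of 18.6 points did not pass (exact permutation p = 0.194). For ID2 the summed shares were 88.9% and 96.9%, and for ID3 75% and 71.4%.

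The chemistries were compared by one-way exact permutation in 24 tests of the 4 genes, 2 handlings and 3 measures, and none passed (adjusted p of 0.32 or more). With 3 groups of 2 libraries the smallest possible p is 0.0667, so no such test could pass. MYC shares averaged 75.1% for NaIO4 and TFEA, 76.1% for iodoacetamide and 81.1% for OsO4 and NH3 after improved handling. In that order ID2 averaged 81.7%, 77.8% and 89.0%, and ID3 averaged 68.2%, 65.7% and 78.2%. OsO4 and NH3 had the highest mean in each of these 3 genes, and not in ID1, which averaged 94.8%, 45.8% and 89.2%. After drop-out handling OsO4 and NH3 had the highest mean in all 4 genes, with ID1 at 69.5%, 79.2% and 89.0%. The edgeR contrasts of chemistries called 0 of 1992 genes (0%), with 41 to 94 at an unadjusted p under 0.05 in each.

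The same reads had been aligned in other ways, and the converted share moved with the aligner. HISAT-3N, the conversion-aware aligner used above, gave a MYC share of 74.6% on average over 12 labelled libraries. HISAT2 with the settings code D gave 66.1%, lower in 12 of 12 libraries with a mean difference of -8.44 points, and STAR with D gave 69.8%, lower in 12 of 12 with -4.75 points (both adjusted p = 0.00146, exact sign-flip permutation over 48 comparisons). With HISAT2 and the code VL the share was 75.4%, 0.78 points higher and within its spread (adjusted p = 0.349, exact permutation).

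The shares of ID1, ID2 and ID3 changed by -5.97, -7.28 and -6.10 points with HISAT2 D, each past the threshold (adjusted p = 0.00260, 0.0134 and 0.00260, exact permutation). With STAR D they changed by -0.51, -0.90 and -0.05 points and did not pass. STAR D counted 13.3% more exonic reads of MYC, 17.0% more of ID2 and 11.6% more of ID3 per library on average, in 12 of 12 libraries each, and 22.2% more of ID1, in 8 of 12. ID3 stood apart with HISAT2 VL, at 4.71 points above HISAT-3N in 12 of 12 libraries (adjusted p = 0.00146, exact permutation). The labels do not define the codes.

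Degradation rate constants were given for MYC and for none of the ID genes in the authors' deposited table. In the authors' deposited table the MYC constant was 1.10 after drop-out and 0.937 after improved handling for NaIO4 and TFEA. It was 1.13 and 0.953 for iodoacetamide, and 1.05 and 0.871 for OsO4 and NH3, again in the authors' deposited table. The time unit is not stated. MYC held rank 3, 1 and 1 from the top of 2209, 1600 and 2262 transcripts after drop-out handling, and rank 3, 2 and 2 after improved handling, in the authors' deposited table.

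The authors' deposited table gave log2 changes of -0.22, -0.24 and -0.26 for MYC, improved over drop-out, with the authors' adjusted p of 0.511, 0.485 and 0.435. It called 53.3%, 50.3% and 48.6% of its transcripts, nearly all higher, and the median log2 change in the authors' deposited table was 1.18, 1.14 and 1.19. Transcripts with a drop-out constant of at least 0.5, MYC among them, had median log2 changes of -0.23, -0.42 and -0.26 in the authors' deposited table, with 32 of 38, 14 of 18 and 26 of 31 below 0. That limit was set after the values were seen and selects on the drop-out constant that enters the change, so these medians are a description. The MYC converted share in the counts was 5.73 points higher under improved handling while these constants were lower, and neither difference passed its test.

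**Figure D5:**
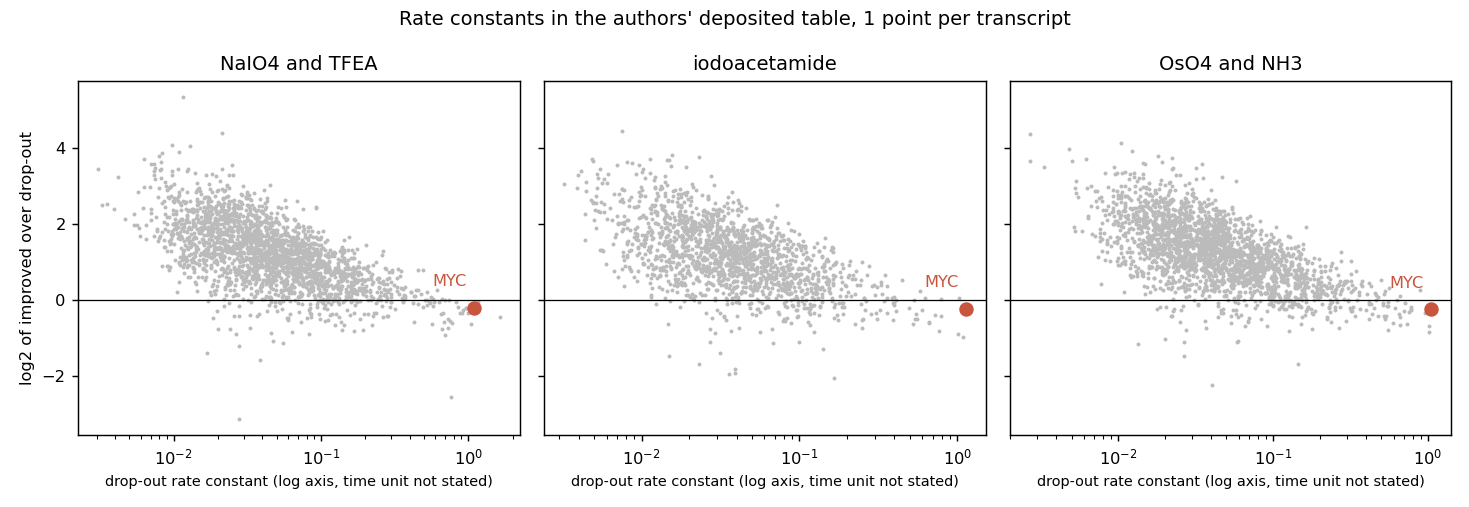
Log2 change of the rate constant, improved over drop-out handling, against the drop-out rate constant (log axis, time unit not stated) for each transcript of the authors' deposited table, by chemistry. MYC sits at the fast end, at 1.10, 1.13 and 1.05, with log2 changes of -0.22, -0.24 and -0.26.

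Other genes of the pathways could be found by symbol only in the authors' deposited table, which called 52.6%, 48.9% and 48.1% of its transcripts higher and 0.679%, 1.44% and 0.442% lower under improved handling for NaIO4 and TFEA, iodoacetamide, and OsO4 and NH3. Of 12 genes listed as MYC targets 10 were present in each chemistry, and the authors' deposited table called 7, 4 and 5 of them higher and 0 lower, with median log2 changes of 1.21, 0.73 and 0.90. CAD, which starts pyrimidine synthesis, changed by 2.31, 2.39 and 2.57 in the authors' deposited table. NPM1, a nucleolar chaperone of ribosome assembly, changed by 1.62 and 1.67 for NaIO4 and TFEA and for iodoacetamide, and EIF4A1, a translation initiation helicase, by 3.24 for OsO4 and NH3, all past the authors' threshold in the authors' deposited table.

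Of 11 MYC network partners 3, 2 and 4 were present, and the authors' deposited table called 1, 2 and 2 higher. MLXIP, a glucose-responsive relative of MYC partners, changed by 1.44, 1.61 and 1.64, and MXD4, a MAX partner that represses MYC targets, by 1.47 and 1.21 for iodoacetamide and for OsO4 and NH3 in the authors' deposited table. MNT, another repressing MAX partner, had -0.05 and -0.21 where present in the authors' deposited table and was not called. Of 10 MYC cofactors and turnover factors 5 were present in each, and the authors' deposited table called 3, 3 and 4 higher. They included TRRAP, a scaffold of histone acetyltransferases that MYC recruits, at 2.02, 2.00 and 1.52, and HUWE1, a ubiquitin ligase of MYC, at 1.78, 2.01 and 1.76, in the authors' deposited table.

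For the ID genes, 2, 1 and 1 of 6 helix-loop-helix partners were present in the authors' deposited table and none was called. TCF3, the E protein that ID proteins bind, had 0.67, 0.96 and 0.97, and HEY1, a Notch-driven repressor, had -0.23 where present in the authors' deposited table. Of 13 genes of the BMP and SMAD pathway 1, 0 and 2 were present and none was called, with BMP7, a ligand, at 0.33 and 0.19 and SMAD6, an inhibitory SMAD, at 0.75 in the authors' deposited table. Of 7 proteins that bind AU-rich elements 3 were present in each chemistry, and the authors' deposited table called 2, 2 and 2 higher, with HNRNPD at 1.76, 2.22 and 2.34. The shares called in all 6 lists can be read against those of the whole table. Of 7 HEK293T markers, 4 (VIM, KRT18, NEFM and CDH2) were among the transcripts of the authors' deposited table, and KRT8, PAX2 and LIN28B were not. None of 4 markers of blood, liver, fibroblasts or endothelium was among them. The authors' deposited table held only 2209, 1600 and 2262 transcripts, so absence from it is not absence of expression, and these markers do not test the cell type.

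Genes with the most similar exonic profile over the 18 libraries were found by Pearson correlation of log2 CPM, among 3451 genes with at least 100 reads on average. The points share libraries, handling and depth, so these values are descriptions. ENSG00000146670 was closest to ID3 (r = 0.940), ENSG00000140450 to ID2 (r = 0.906) and ENSG00000213676 to MYC (r = 0.899), and the closest gene to ID1 had r = 0.844. The handling changes in labelled cells of those 3 were -1.09, 2.73 and -1.50 on the log2 scale. ENSG00000146670 was also the third closest to ID1 (r = 0.828).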

How the data were processed

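Per the labels' protocols, total RNA was extracted with Trizol, treated with DNase, converted with 1 of 3 chemistries and made into stranded total-RNA libraries. In the deposited count table each entry holds the reads that share library, aligner, settings code, gene, intronic flag and, as whole numbers, their T-to-C mismatches and T positions. The aligner is named in the table. The submitters' processing notes list GRCh38, cutadapt, HISAT, HISAT2, STAR, Picard, HTSeq and DESeq2 without roles, and versions are not given in the sources used here. The authors also deposited degradation rate constants (a value of another kind, with no stated time unit) from bakR, per the labels. Each comes with a deposited log2 change (improved over drop-out) and an adjusted p-value by the authors.

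Of 28 samples, 18 are in the count table, and the other 10 were not analysed here. Between 17.5% and 41.5% of a library's reads named no single gene, and these entered no fit. The range was 32.7% to 41.5% after drop-out and 17.5% to 25.7% after improved handling, without overlap. Whether counting used strand, and how reads of overlapping genes were treated, is not stated in the sources used here; 0 to 2 reads were listed as shared between another gene and each of the 4 genes. Replicates were not copies of each other: chi-square per degree of freedom was 4.85 to 8.68 after drop-out and 2.13 to 2.32 after improved handling. Symbols of the 4 genes came with their identifiers, and no table used here paired the other identifiers with symbols.

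Exonic reads aligned with HISAT-3N D were summed per gene, filtered with filterByExpr, scaled by TMM and fitted with edgeR 4.0.16 (quasi-likelihood, 12 groups, contrasts averaged over chemistries, Benjamini-Hochberg adjustment over all genes tested, threshold 0.05). Because 6 groups held 1 library, all groups shared the spread. A read with at least 1 T-to-C mismatch was called converted. For genes that reached 50 exonic reads in each labelled library, converted and unconverted reads were also set against each other in edgeR, each library having its own term. Single values were tested by exact permutation within chemistry with SciPy 1.17.1 (216 arrangements for labelled, 8 for unlabelled and 8000 for all libraries) and aligners by sign flips (4096 arrangements). Intervals are 95% Wilson. Alternatives were DESeq2 1.42.0, no filter, intronic reads, other aligners, 2 mismatches, background subtraction, a mixture of binomials, other minima of reads, a replicate block and leaving out libraries. The edgeR fits and the mixture were tested on simulated data. The 4 genes are always named, with the 3 closest genes by correlation and up to 2 called genes per list and direction, and no more than 2 identifiers without symbol per direction. Members and lists were chosen with earlier results of these data known.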

Additional observations from a re-analysis of the deposited data

Results flagged for a closer look

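Of 24 sets of 6 labelled libraries (4 genes, 2 handlings and the level, converted share and intronic share), 2 held a library far from the others, where chance is taken to give about 1 set in 20. That rate need not hold for shares that rest on few reads. The converted share of ID1 in the second iodoacetamide library after improved handling was 16.7%, resting on 6 reads, while the other 5 improved libraries lay between 75% and 100%. The intronic share of ID1 in the first NaIO4 and TFEA library after improved handling was 3.33%, which was 1 read, while the other 5 were at 0%.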

How the results depend on the processing

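Exonic handling changes of MYC, ID2 and ID3 in labelled cells kept direction and call under every alternative run. The median gene's change was 0.44, and 0.45 with DESeq2 size factors, 0.59 with intronic reads, 0.58 with no filter and 0.25 with the replicate block. ID1 passed with no filter (-0.84), with intronic reads (-1.40) and with the replicate block (-0.94), and ranged from -1.02 to -0.50 over libraries left out. The label change of ID3 after drop-out handling was lost with intronic reads (-0.99), STAR (-0.87) and DESeq2 (-0.89), with -0.96 to -0.79 over libraries left out. That of MYC turned to -0.0062 with STAR and -0.14 with HISAT2, and after improved handling to -0.13 and -0.23.

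The ID2 difference in converted share was 19.1 points with 2 or more mismatches and 1.45 to 16.8 over libraries left out, that of ID1 -12.3 to 7.11, and the MYC log2 odds ratio 0.24 to 0.61. Without single libraries the MYC log2 odds ratio of NaIO4 and TFEA over iodoacetamide after improved handling ran from -0.33 to 0.15. The intronic difference between handlings ran from -0.52 to 1.26 points for MYC and -4.17 to 0.21 for ID2. With intronic reads, the difference from HISAT-3N turned to 1.24 points for ID2 with HISAT2 VL and to 0.29 for ID3 with STAR. The causes were not tested. Without 1 library, 399 values kept direction and call, 15 newly passed, 9 were lost and 9 turned sign; under other settings the numbers were 137, 8, 6 and 6. Unlabelled libraries, single in their groups, were not left out. No member had 200 reads in every labelled library, so none has a value at that minimum.

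Genes called for the label went from 27 after drop-out handling to 97 with no filter, 90 with HISAT2, 53 with DESeq2, 18 with intronic reads and 17 to 208 without single libraries. After improved handling they went from 28 to 50, 102, 28, 37 and 15 to 57, and to 8 with STAR. Interaction calls of label and handling went from 0 to 10 with no filter, 3 with DESeq2, 1 with HISAT2 and up to 17 without single libraries. Converted-share calls went from 1633 of 1992 genes to 2885 of 4084, 308 of 363 and 3877 of 7472 at minima of 20, 200 and 5 reads. Same-numbered libraries of the 2 handlings correlated at 0.04 to 0.07 within chemistries, below the 0.1 needed to call them paired, so the replicate block shares only a number. Among the member genes, the block changed only the call of ID1 for the exonic handling change in labelled cells. Over all genes tested, calls for that change went from 10033 to 9812 with the block. Converted-share calls went from 1633 to 1712.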
